A study of Homo sapiens with 2 samples.

Results

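The miRs described here are those of the hairpins miR-382, miR-134, miR-668, miR-485 and miR-453, which lie side by side in the 14q32.31 miR cluster of human chromosome 14. They were chosen by name, as every name in the deposited table that reads miR-382, miR-134, miR-668, miR-485 or miR-453 once the arm suffix, asterisk and copy number are removed. This gave 8 of the 934 names, 2 for each of 4 hairpins. No name carried miR-453. RefSeq gives MIR453 as an earlier symbol of MIR323B, so the names of miR-323b are shown beside the 8 as a neighbour and are not counted among them.

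Small RNA was sequenced from K562/ADM, an adriamycin-resistant line, and from its parent K562, with 1 library for each. K562 is an established line from a human chronic myelogenous leukemia, which was left untreated. K562/ADM was derived from it by exposure to rising amounts of the drug, an anthracycline that damages DNA, and was then kept in 1000 ng/mL. It is a single derived line, so that drug exposure, long culture and the history of that line cannot be told apart. With 1 library per line there was no replicate check, and no p-value was computed. Each interval below is an exact 95% interval that covers counting error only, and each comparison describes these 2 libraries and not the conditions in general.

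Whole reads were recovered from the deposited values and came to 6895193 in K562/ADM and 7677738 in K562. Blood miRs were abundant in both lines. Among them, miR-451, a miR of red cell precursors, had 19738 reads in K562/ADM and 30470 in K562, and 6 of the 8 blood markers looked for were listed, while miR-150 and miR-155 were not listed under those names. Of 11 markers of neurons, liver, muscle and epithelium, 3 were well above the rest. They were miR-9 of neural cells with 17882 reads in K562/ADM and 7976 in K562, miR-128 of neurons with 5065 reads in K562/ADM and 4192 in K562, and miR-141 of epithelium with 743 reads in K562/ADM and 893 in K562. The other 8, which include miR-124 of neurons and miR-122 of liver, had 0 to 63 reads in K562/ADM and 0 to 58 in K562. The part of other cell types in the results below was not tested. Since RNA was pooled from all cells of a culture, fewer cells that express a miR and less miR per cell cannot be told apart.

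A miR hairpin is cut by Drosha and then Dicer into a duplex of 2 arms, and 1 arm is usually kept by an Argonaute protein while the other is lost. The kept arm finds target mRNAs mainly through its seed, a short stretch near its 5' end. The 14q32.31 cluster is part of the imprinted DLK1-DIO3 domain and is expressed from the maternal chromosome, with high levels in brain. In rat hippocampal neurons, miR-134 restrains the size of dendritic spines by repressing the kinase Limk1, and the cluster is induced there by neuronal activity.

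The 5 hairpins lie in a row on the plus strand of chromosome 14. By matching the RefSeq hairpin sequences to GRCh37, each was found once on that chromosome, within 1995 bases. MIR382 lies from 101520643 to 101520718, MIR134 from 101521024 to 101521096, MIR668 from 101521595 to 101521660, MIR485 from 101521756 to 101521828 and MIR323B from 101522556 to 101522637. The gaps between neighbours in this order are 305, 498, 95 and 727 bases. All 5 lie inside the lncRNA gene MEG9 (101509245 to 101539274, plus strand). Of its 8 annotated transcripts, 1 has an exon over MIR382 and MIR134, and 2 have an exon over MIR668, MIR485 and MIR323B.

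The mature sequences below carry the comparisons that follow and are given 5' to 3', from the RefSeq annotation of GRCh38.p14, with the seed (bases 2 to 8) in capitals. The table names miR-485-3p and miR-485-5p are the same as in RefSeq, while miR-382 and miR-134 are older names of miR-382-5p and miR-134-5p. In miRBase an asterisk marks the less abundant arm. The sources used here do not say what it marks in names spelled mir, of which there are 3 among the 8, so those are kept under the names of the table. Elsewhere in the cluster the table lists both miR-380*, with 0 reads in K562/ADM and 18 in K562, and mir-380*, with 9 reads in K562/ADM and 1237 in K562, so that the 2 spellings are not the same name.
miR-382-5p: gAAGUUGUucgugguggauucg
miR-382-3p: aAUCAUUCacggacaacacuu
miR-134-5p: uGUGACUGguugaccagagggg
miR-134-3p: cCUGUGGGccaccuagucaccaa
miR-485-5p: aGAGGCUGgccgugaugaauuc
miR-485-3p: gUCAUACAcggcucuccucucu
miR-323b-5p: aGGUUGUCcguggugaguucgca
miR-323b-3p: cCCAAUACacggucgaccucuu

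No seed was shared among these arms. In RefSeq the seed of miR-134-5p is also that of miR-3118, which had 39 reads in K562/ADM and 33 in K562. The seed of miR-485-3p is also that of miR-539-3p, that of miR-485-5p is also that of miR-6884-5p, and that of miR-323b-5p is also that of miR-410-5p and miR-494-5p. These 4 are not listed in the table under those names. The names mir-539*, mir-410* and mir-494* are listed, with 0 reads each in K562/ADM and 28, 17 and 17 in K562. Whether they are the arms with these seeds is not stated.

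MiR-134 was by far the most abundant of the 8 names in both lines, and it was strongly lower in K562/ADM. It had 464 reads in K562/ADM and 14608 in K562, which placed it at rank 151 of the 934 names in K562/ADM and at rank 42 in K562. After scaling by size factors its ratio of K562/ADM to K562 was 0.0389 (95% interval 0.0354 to 0.0427). It made up most of the reads of the 8 names both in K562/ADM (95% interval 90.4% to 95.1%, Clopper-Pearson) and in K562 (88.6% to 89.5%).

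MiR-382 and miR-485-3p had close numbers of reads in K562 and different numbers in K562/ADM. MiR-382 had 25 reads in K562/ADM and 725 in K562. MiR-485-3p had 6 reads in K562/ADM and 756 in K562. In K562 the exact Poisson intervals of their reads overlapped (673 to 780 for miR-382 and 703 to 812 for miR-485-3p), whereas in K562/ADM they did not (16.2 to 36.9 for miR-382 and 2.20 to 13.1 for miR-485-3p). After scaling, miR-382 was 23.7-fold lower in K562/ADM (15.9 to 36.8).

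The other names were scarcer. MiR-485-5p, the strand opposite miR-485-3p, had 3 reads in K562/ADM and 222 in K562, and was 60.4-fold lower (20.4 to 295). The name mir-382* had 1 read in K562/ADM and 81 in K562, a ratio of 0.0151 (0.000378 to 0.0867). The name mir-134* had 0 reads in K562/ADM and 8 in K562, and the upper limit of its ratio was 0.717. Against a floor of 3 reads in K562/ADM, with the 8 reads of K562 taken as exact, it was 2.18-fold lower. That value is not a limit, since its interval allows a fall of 1.39-fold.

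MiR-668 was at the edge of detection in both lines. It had 0 reads in K562/ADM and 4 in K562, and mir-668* had 0 reads in K562/ADM and 1 in K562. The upper limit of the ratio of miR-668 was 1.86, so that a difference was not detectable at this depth. Next to them, miR-323b-3p had 3 reads in K562/ADM and 52 in K562, and miR-323b-5p had 0 reads in K562/ADM and 3 in K562.

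**Figure D1:**
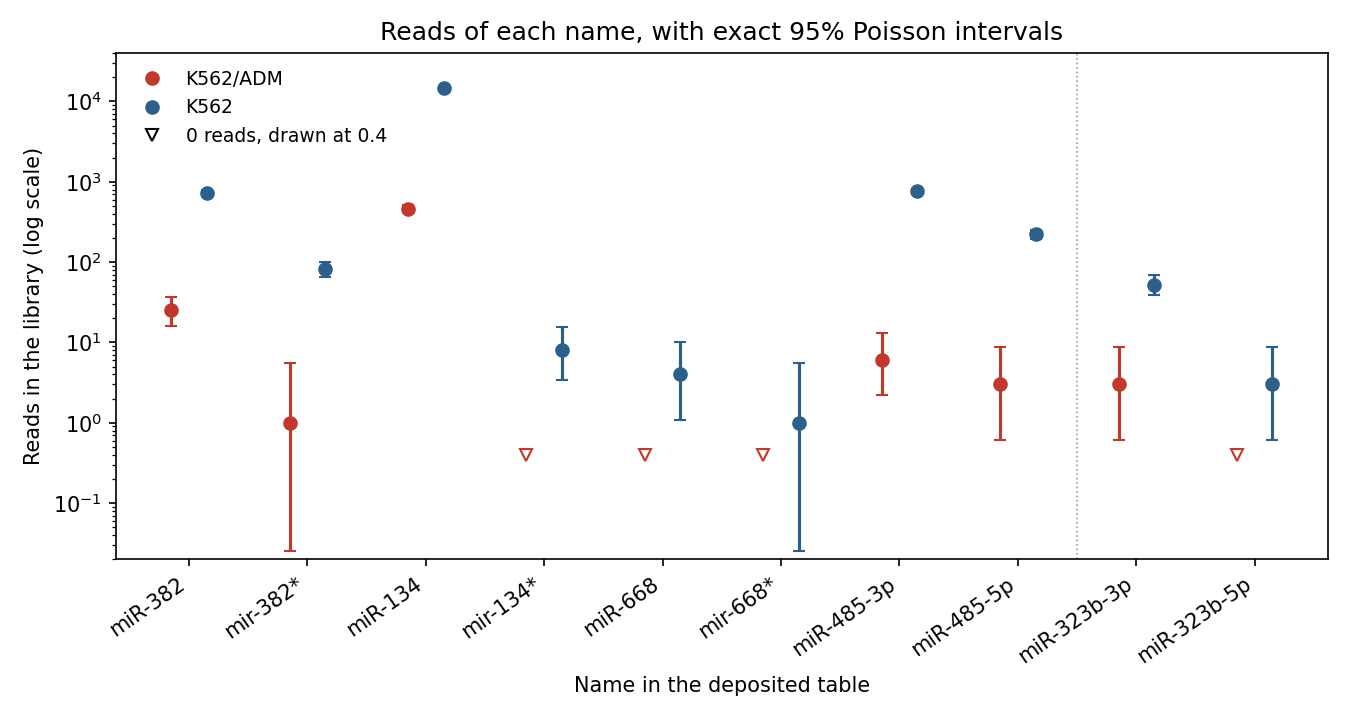
Reads in the library (y axis, log scale) of each name (x axis), with K562/ADM in red and K562 in blue. Points are reads, bars are exact 95% Poisson intervals, open triangles stand for 0 reads, and the dotted line sets off the miR-323b names. MiR-382 and miR-485-3p stand close in K562 at 725 and 756 reads, and apart in K562/ADM at 25 and 6 reads.

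A name was called when it differed by 2-fold or more and 1 lay outside its interval. By this rule 6 of the 8 names were lower in K562/ADM and 0 were higher, where 15.6% of all 934 names were lower and 11.1% were higher. The 2 not called were miR-668 and mir-668*. Under upper-quartile scaling mir-134* was not called either, which left 5 of the 8, where 10.2% of all names were lower. With the stricter demand that the whole interval lie beyond 2-fold, 5 of the 8 were lower and 0 were higher, where 11.1% of all names were lower and 6.53% higher. The median log2 ratio of the 8 names was -6.37 with the 3 names without reads in K562/ADM at the bottom of the order, or -4.68 over 7 names with such names set at the floor of 3 reads, and that of the 5 names with 10 or more reads in total was -5.92. Over all names of the table these medians were -0.03 and -0.08.

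Summed over the 8 names, the reads made up 0.00724% of the K562/ADM library (0.00662 to 0.00790) and 0.214% of the K562 library (0.210 to 0.217). The sum was 26.8-fold lower in K562/ADM after scaling (24.6 to 29.4). Without miR-134 the sum of the other 7 names was 35 reads in K562/ADM and 1797 in K562, which was 41.9-fold lower (30.0 to 60.4).

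The level left in K562/ADM, as a percent of the level in K562, differed between the hairpins. Of miR-382, 4.22% was left (2.71 to 6.28), and of miR-134, 3.89% (3.54 to 4.27). Of miR-485-3p, 0.972% was left (0.356 to 2.13), and of miR-485-5p, 1.65% (0.339 to 4.90). Summed over both names of each hairpin, the values were 3.95% for miR-382 (2.56 to 5.83), 3.89% for miR-134 (3.54 to 4.26) and 1.13% for miR-485 (0.514 to 2.15).

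Among the 5 names with 10 reads or more in K562 there are 10 pairs, and the ratio of the levels left was formed for each from the reads alone, so that the scaling of the libraries does not enter. The interval of the ratio excluded 1 in 2 pairs. The level left was 4.00-fold higher for miR-134 than for miR-485-3p (1.82 to 11.0), and 4.34-fold higher for miR-382 than for miR-485-3p (1.73 to 13.0). With intervals widened to 99.5% to allow for the 10 pairs, both still excluded 1, with limits of 1.41 and 18.2 for miR-134, and of 1.25 and 21.9 for miR-382.

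For miR-382 against miR-134 the ratio was 1.09 (0.690 to 1.64), so that no difference was detectable between them within these limits. The other 7 pairs involve miR-485-5p or mir-382*, with 3 reads and 1 read in K562/ADM. Their intervals were wide, and none of them excluded 1. The noise between repeat libraries of 1 line is not known and is not part of any of these intervals. The authors left out unique sequences seen once, and what this took from names with few reads was not tested.

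**Figure D2:**
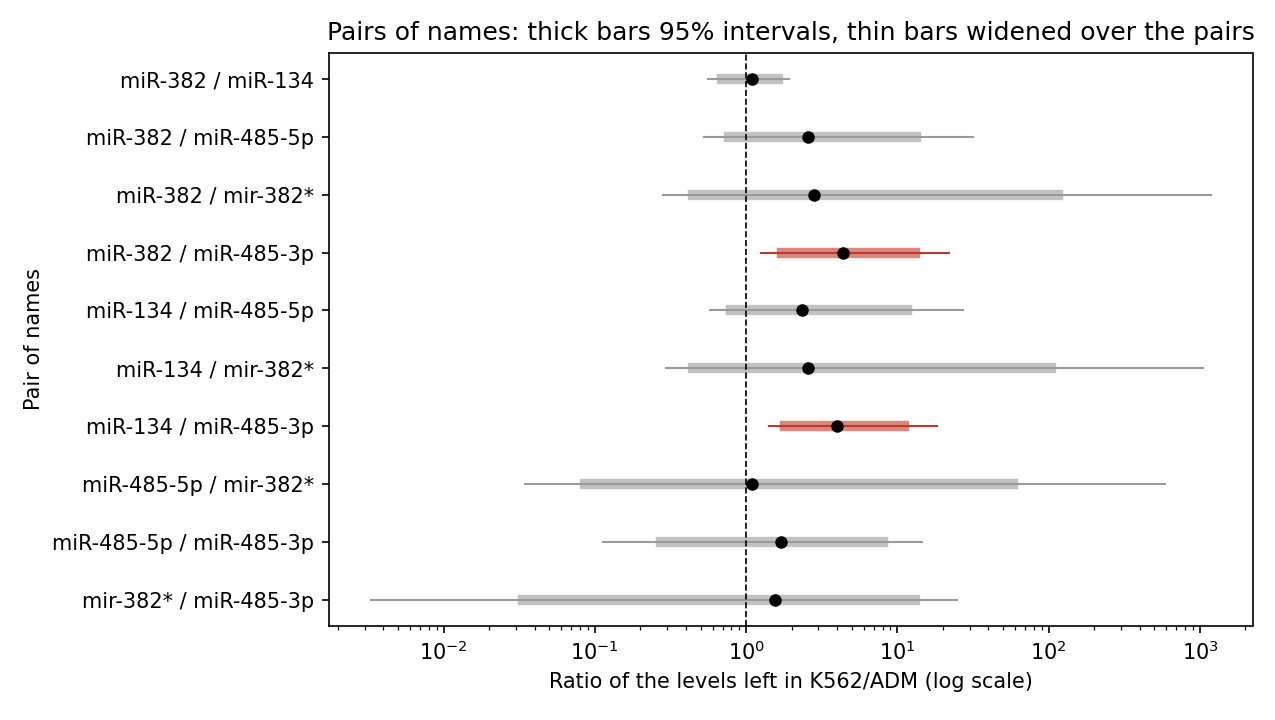
Ratio of the levels left in K562/ADM (x axis, log scale) for the 10 pairs of names with 10 reads or more in K562 (y axis). Points are ratios, thick bars 95% and thin bars 99.5% intervals, and the dashed line marks equal levels. The 2 red bars, miR-382 and miR-134 each over miR-485-3p, lie above 1, and the 8 grey bars cross it.

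The use of the 2 names was compared within each hairpin. For miR-485 they are the 2 arms, and the 3p arm was the more abundant in K562. MiR-485-3p made up 6 of 9 reads in K562/ADM, or 66.7% (29.9 to 92.5), and 756 of 978 in K562, or 77.3% (74.5 to 79.9). The level left of miR-485-3p over that of miR-485-5p was 0.587 (0.124 to 3.66), which leaves room for a shift in either direction.

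For miR-382 and miR-134 the second name is spelled mir with an asterisk, so that the shares are those of names and not of arms known from the sources. MiR-382 made up 25 of 26 reads of its hairpin in K562/ADM, or 96.2% (80.4 to 99.9), and 725 of 806 in K562, or 89.95% (87.7 to 91.9). The level left of miR-382 over that of mir-382* was 2.79 (0.444 to 116). MiR-134 made up all 464 reads of its hairpin in K562/ADM (lower limit 99.2%) and 14608 of 14616 in K562 (lower limit 99.9%). A change in these shares was therefore not detectable in any of the 3 hairpins, and 9 and 26 reads in K562/ADM set the limit for miR-485 and miR-382.

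In the neighbour miR-323b the 3p arm was the abundant one in K562, as in miR-485. MiR-323b-3p made up 3 of 3 reads in K562/ADM and 52 of 55 in K562. The names miR-382 and miR-134, which are 5p arms, held most of the reads listed for their hairpins, and whether mir-382* and mir-134* are the 3p arms is not stated. Of miR-668 there were 4 reads of miR-668 and 1 of mir-668* in K562, which does not settle an order.

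**Figure D3:**
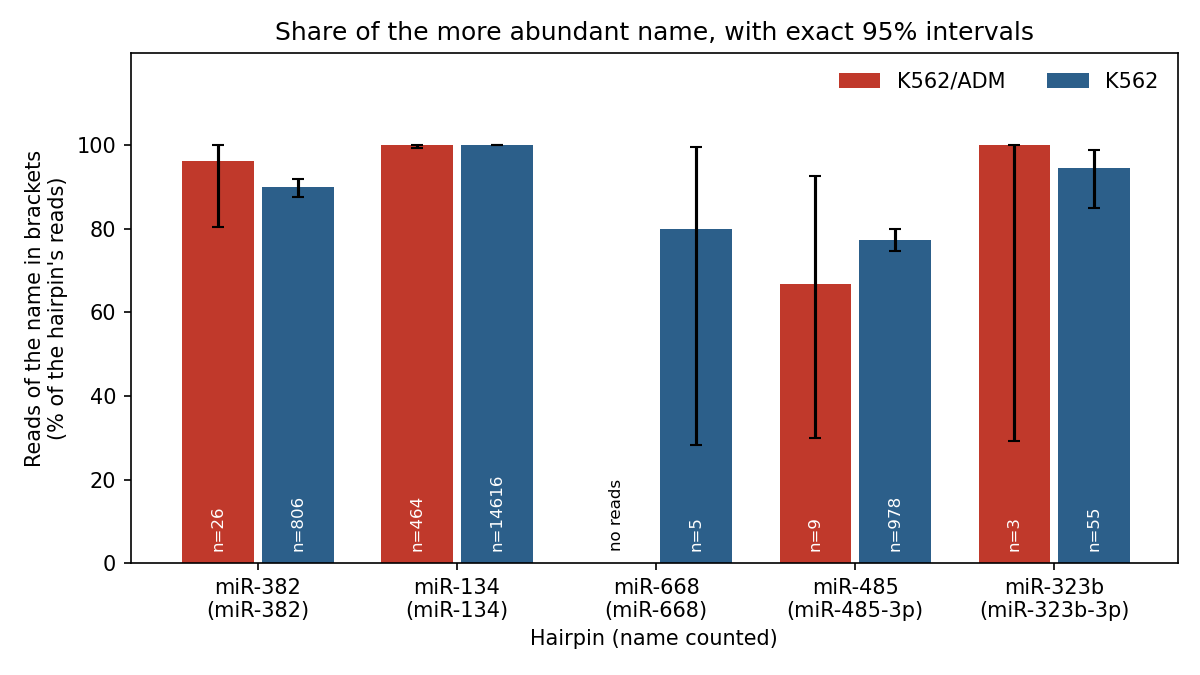
Share of each hairpin's reads that stood under the name given on the axis (y axis, %), for 5 hairpins (x axis), with K562/ADM in red and K562 in blue. Bars are shares, error bars exact 95% Clopper-Pearson intervals, and n is the reads of both names together. The intervals of K562/ADM and K562 overlap in each hairpin with reads in both, and miR-668 had no reads in K562/ADM.

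The remaining 65 names of the 14q32.31 cluster were also low in K562/ADM, with 55 called lower, 0 higher and 10 not called, and a median log2 ratio of -6.69, or -4.88 over 62 names with the same floor. The neighbouring block from miR-381 to miR-655 had 10 of 12 names called lower, and the block from miR-154 to miR-656 had 13 of 16. The cluster list was drawn up with earlier results of these data known, so its direction is not independent evidence.

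Within this shared fall, miR-134 kept more of its level than most of the cluster. Of 38 other cluster names with 50 reads or more in K562, whose levels left ran from 0% to 9.22% with a median of 1.56%, 34 had less left than miR-134. The ratio of miR-134 to the other name had an interval above 1 for 21 of the 38 and below 1 for 1, miR-1185, with 29 reads in K562/ADM and 385 in K562. With intervals widened over all 190 comparisons of 5 names with 38, 13 lay above 1 and 1, again miR-1185, below. Against the other 65 names summed, the level left of miR-134 was 3.22-fold higher (2.90 to 3.57), and it was 2.30-fold higher without miR-381 (2.04 to 2.59). MiR-381 held 49.3% of the cluster reads in K562/ADM and 67.1% in K562.

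MiR-134 therefore took a larger part of what remained of the cluster. It made up 18.3% of the cluster reads in K562/ADM (16.8 to 19.8) and 6.54% in K562 (6.44 to 6.65). Among the cluster reads other than those of miR-381, it made up 36.1% in K562/ADM (33.5 to 38.8) and 19.9% in K562 (19.6 to 20.2).

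MiR-382 likewise stood high within the cluster. Of the same 38 names, 35 had less left than miR-382, with an interval above 1 for 20 and below 1 for 1, and 8 and 0 after widening over the 190 comparisons. Against the other 65 names summed, its level left was 3.50-fold higher (2.24 to 5.22), and 2.50-fold higher without miR-381 (1.59 to 3.74).

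MiR-485-3p lay toward the low end, with 11 of the 38 names having less left. Its interval lay below 1 for 6 names and above 1 for 0, and after widening below 1 for 1. Against the other 65 names summed its ratio was 0.805 (0.294 to 1.76), so that it was not distinguished from the cluster as a whole. For miR-485-5p the same ratio was 1.37 (0.280 to 4.06).

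The contrast between miR-134 and miR-485-3p was found over a short distance. MiR-134 and miR-485 are separated on the chromosome by miR-668 alone. On the upstream side, 22 reads of miR-655 in K562/ADM and 1075 in K562 left 2.51% (1.56 to 3.81), and 7 reads of miR-487a in K562/ADM and 374 in K562 left 2.29% (0.915 to 4.77). The second names of these hairpins were scarce. The name mir-487a* had 2 reads in K562/ADM and 27 in K562, with 9.07% left (1.05 to 36.1), and mir-655* had 0 reads in K562/ADM and 8 in K562. On the downstream side, 7.07% of miR-323b-3p (1.41 to 21.8), 2.17% of miR-154 (0.444 to 6.46) and 0.459% of miR-154* (0.0116 to 2.58) were left. The level left was 1.55-fold higher for miR-134 than for miR-655 (1.01 to 2.51), an interval that held 1 once widened over the 190 comparisons (0.737 to 3.96). For miR-134 against miR-487a the interval of the ratio ran from 0.809 to 4.27.

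**Figure D4:**
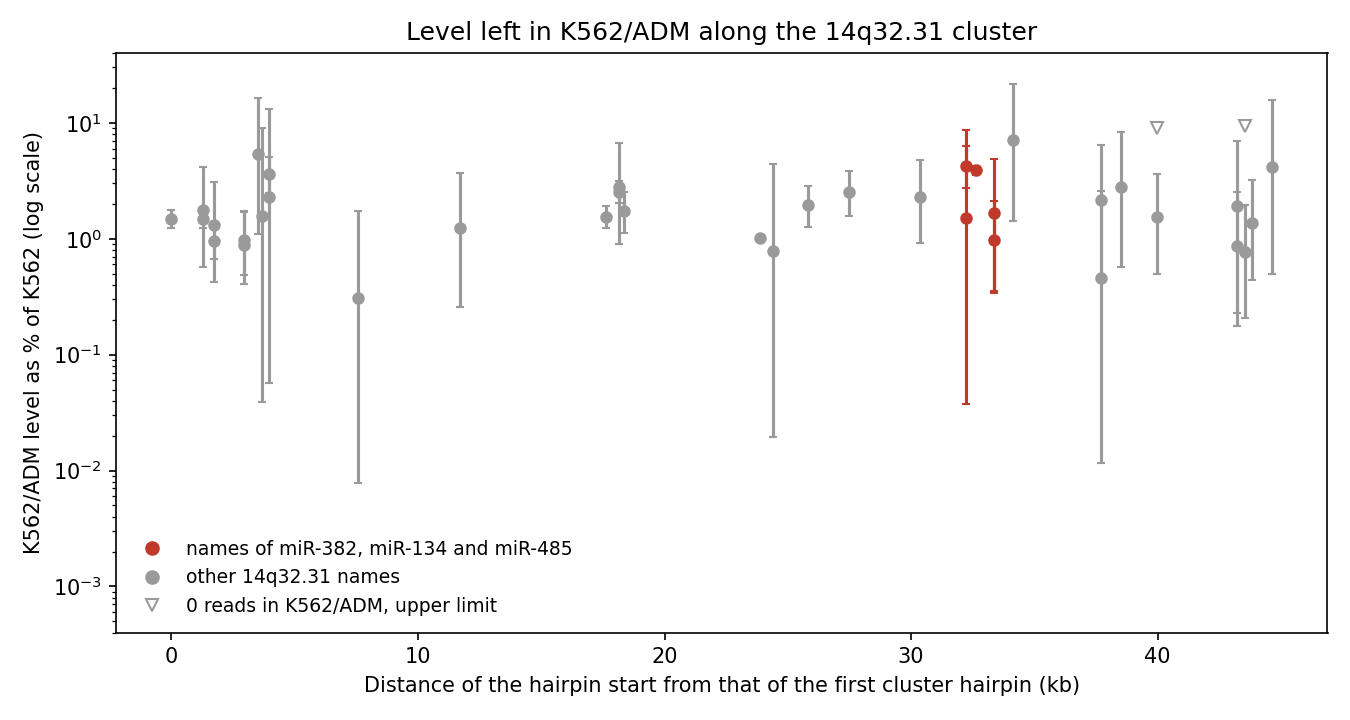
Level left in K562/ADM as a percent of K562 (y axis, log scale) against the distance in kb between the start of each hairpin and that of the first hairpin of the cluster (x axis). Drawn are 39 names with 50 reads or more in K562, in red 5 names of miR-382, miR-134 and miR-485 and in grey the others, with exact 95% intervals, and open triangles give the upper limit of 2 names without reads in K562/ADM. Names from hairpins with more than 1 copy are left out. The red points of miR-382 and miR-134 lie near 4%, and those of miR-485 and of mir-382*, which had 1 read in K562/ADM, lie lower.

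The nearest names in level lay closer to miR-382 and to miR-485-3p than to miR-134. Closeness was taken as the distance of log2(scaled reads + 1) over the 2 libraries, among names with 50 or more reads in total. The nearest names to miR-382 were miR-432, at a distance of 0.35 with 32 reads in K562/ADM and 761 in K562, miR-136* at 0.40, and miR-329, at 0.50. The nearest to miR-485-3p were miR-369-3p at 0.55, miR-299-5p at 0.73 and miR-337-3p at 0.75. Of these names, miR-432, miR-136* and miR-337-3p belong to the part of 14q32 upstream of the cluster. Their levels left were 5.15%, 3.50% and 2.12%. Levels like those of miR-382 and miR-134 thus occurred there in miR-432 and miR-136*, which were picked for their closeness to miR-382. How common such levels are there was not tested. The nearest to miR-134 were miR-411 at 1.87, miR-19b-1* at 1.95 and miR-379 at 1.98. Distances for other names as abundant as miR-134 were not computed. For miR-668 the nearest were miR-369-5p, miR-377* and mir-758*, at 3.32 or more, since names as scarce as miR-668 are below the read limit.

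Parts of these arms recur in other miRs of the cluster. The run AUACACGG, in capitals below, occurs in miR-485-3p and miR-323b-3p, and in 4 of 2370 mature human miRs of RefSeq (0.169%), all of them among the 73 of the 14q32.31 cluster. They are shown because they share this run with miR-485-3p, and a link between the run and the level left was not tested.
miR-485-3p: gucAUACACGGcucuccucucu
miR-323b-3p: cccaAUACACGGucgaccucuu
miR-154-3p: aaucAUACACGGuugaccuauu
miR-494-3p: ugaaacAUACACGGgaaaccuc

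The levels left of these names ran from 0.311% to 7.07%, but they rest on few reads and their intervals overlapped. MiR-494, now miR-494-3p, had 1 read in K562/ADM and 394 in K562, with 0.311% left (0.00785 to 1.74). MiR-154*, the older name of miR-154-3p, had 1 read in K562/ADM and 267 in K562, with 0.459% left (0.0116 to 2.58). MiR-485-3p stood at 0.972% (0.356 to 2.13), and miR-323b-3p, with 3 reads in K562/ADM, at 7.07% (1.41 to 21.8). The ratio of miR-485-3p to miR-494 was 3.13 (0.377 to 144), and that of miR-485-3p to miR-323b-3p was 0.138 (0.0286 to 0.879), an interval that held 1 once widened over the 190 comparisons (0.00842 to 5.97).

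MiR-134-5p shares a longer run with an arm of miR-758, UGGUUGACCAGAG, found in these 2 of the 2370 mature miRs. They are shown because a read of these 13 bases alone could not be assigned to 1 of them. Both arms are longer than the run, and whether such short reads were counted is not known.
miR-134-5p: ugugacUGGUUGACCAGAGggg
miR-758-5p: gaUGGUUGACCAGAGagcacac

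The name mir-758* had 1 read in K562/ADM and 54 in K562, far below miR-134 in both libraries. MiR-758 had 34 reads in K562/ADM and 1163 in K562, with 3.58% left, and the ratio of miR-134 to it was 1.09 (0.762 to 1.60). Neither mir-758* nor miR-758 gives its arm in its name. The ratio is therefore not one between arms known to share the run.

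Outside 14q32, names of miRs known from neurons were called about as often as names in general. Of 11 names of miR-9, miR-124, miR-128, miR-132, miR-137, miR-138, miR-212 and miR-219, 2 were called lower, 1 was called higher and 8 were not called. The 2 lower names are 18.2% of the 11, where 15.6% of all names were lower, and the difference between these shares was not tested. MiR-9, a miR of neural progenitors, had 17882 reads in K562/ADM and 7976 in K562, and was 2.75-fold higher (2.67 to 2.82). The 2 lower names were miR-132*, with 15 reads in K562/ADM and 51 in K562, and miR-219-1-3p, with 2 reads in K562/ADM and 13 in K562.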

How the data were processed

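Small RNA libraries of K562/ADM and K562 were sequenced on an Illumina Genome Analyzer IIx. The authors left out unique sequences seen once, ran Bowtie within miRanalyzer against miRBase 16, and scaled the counts with DESeq size factors. The deposited values are therefore a normalised signal, of which 100% were whole multiples of the smallest value above 0 in their column, within 0.001, and whole reads were recovered. CASAVA 1.7.0 and hg18 are listed in the submitters' processing notes. The sources used here do not say how names with 1 read arose after sequences seen once were left out. The deposited fold changes and p-values are the authors' own comparison and were not used.

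The median of ratios gave size factors of 0.904 for K562/ADM and 1.11 for K562, the same as the deposited ones. Ratios were given exact binomial intervals (Clopper-Pearson), and ratios of levels left were given exact conditional intervals of the odds ratio. Reads without molecular identifiers are not independent molecules. A replicated count test could not be fitted with 1 library per line. All names of the chosen hairpins are named, with those of miR-323b, the flanking miRs and the 3 nearest names by level. The members and lists were chosen with earlier results of these data known. Other scalings, read minimums, call rules and a pseudocount of 1 were tried. The intervals were tested on data simulated with counting error alone, which cannot show how they hold under noise between libraries. TMM and upper-quartile factors came from edgeR 4.0.16 in R 4.3.3. Intervals came from scipy 1.17.1 in Python 3.11.15, with tables in pandas 2.3.3 and numpy 2.4.6. Plots were drawn with matplotlib 3.10.9.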

Additional observations from a re-analysis of the deposited data

How the results depend on the processing

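Of 48 values of the ratios of the 8 names under 5 other scalings and a pseudocount of 1, 47 had the same call and 0 changed direction. Upper-quartile scaling shifted all log2 ratios up by 0.74. With it, mir-134* was no longer called, its ratio being 0 with 0 reads in K562/ADM, so that 5 of the 8 names were lower, where 10.2% of all names were. Under that scaling 70.1% of all called names were higher, against 41.6% with the median of ratios and TMM, and at most 36.8% with the other 3 scalings. The median log2 ratio was -5.62 there and -4.68 with names without reads set at a floor of 3 reads. By the ratio alone 8 of the 8 names were lower, where 29.4% of all names were. With the miR-323b names added, an alternative chosen after seeing the data, 7 of 10 names were lower. The levels left ran from 0.972% to 4.22% also with at least 50 reads in K562. Leaving out the names spelled mir with an asterisk set the share of the first name at 100% for miR-382 in K562/ADM and in K562 and for miR-134 in K562, which follows from leaving out the second name. Without miR-134 the summed level was 0.000508% of the reads in K562/ADM and 0.0234% in K562. Shares within hairpins and ratios of levels left do not depend on the scaling. No paired analysis was possible because each line had 1 library. Depth limits miR-668, both arms of miR-485 and mir-382*, which had 0 to 6 reads in K562/ADM.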
